A study of Mus musculus with 9 samples.

Results

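The genes described here encode 10 subunits of the DREAM and MuvB complexes, chosen by gene symbol: *Lin9*, *Lin37*, *Lin52* and *Lin54* of the MuvB core, *Rbl1* and *Rbl2* for the pocket proteins p107 and p130, *E2f4*, *E2f5* and *Tfdp1* for the E2F-DP dimers, and *Mybl2* for B-MYB. All 10 symbols were among the 25239 in the count files, and all 10 passed the filter on low counts that left 14125 genes to test. The remaining MuvB subunit is RBBP4, the protein altered in the mutant cells.

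MuvB is a core of LIN proteins and RBBP4 that is shared between assemblies with opposite activities. In quiescent and early G1 cells it joins p130 or p107, E2F4 or E2F5, and a DP partner to form DREAM, which represses cell cycle genes through E2F and CHR promoter elements. In S and G2 phase the pocket protein and E2F leave, B-MYB and then FOXM1 bind MuvB, and G2/M genes are activated. Mouse embryonic stem cells (ESCs) spend little time in G1 and are known for high B-MYB levels.

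RNA was sequenced from E14 ESCs, a mouse line grown in medium with serum and leukemia inhibitory factor, to ask how gene expression depends on RBBP4. The control carried *Rbbp4*+/+. *Rbbp4* Ins/Ins cells carried a short in-frame insertion on both alleles that substitutes a residue and adds a cysteine, and *Rbbp4* Ins/Del cells carried that insertion on 1 allele and a short in-frame deletion on the other. Each mutant line was a single clone made with CRISPR-Cas9, so a clone and its genotype cannot be told apart within a line, and each line gave 3 libraries. Both mutant lines also went through transfection, puromycin selection and growth from colonies, steps not described for the control. For changes seen in both mutants, this shared history and the *Rbbp4* mutations cannot be told apart. The lines are called control, Ins/Ins and Ins/Del below.

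The promoters of *Rbl1*, *Rbl2* and *Mybl2* are shown because these were the subunit genes with the highest fold changes in both mutants. Each run covers 250 bases before to 50 bases after a RefSeq start site on GRCm38.p6 and reads 5′ to 3′ in the direction of the gene. The *Rbl1* window lies at chr2:157204485-157204784, minus strand, that of *Rbl2* at chr8:91069807-91070106, plus strand, and that of *Mybl2* at chr2:163054385-163054684, plus strand. Capitals mark the letters TTTGAA (the CHR element) and GGCGGGA or GCGCGAA (cores of E2F sites), searched on both strands.
Rbl1: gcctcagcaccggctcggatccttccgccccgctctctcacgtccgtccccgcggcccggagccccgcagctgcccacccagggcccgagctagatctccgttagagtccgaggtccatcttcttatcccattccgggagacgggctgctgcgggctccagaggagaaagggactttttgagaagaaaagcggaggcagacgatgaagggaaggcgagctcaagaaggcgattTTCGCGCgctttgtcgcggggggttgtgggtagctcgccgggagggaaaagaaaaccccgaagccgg
Rbl2: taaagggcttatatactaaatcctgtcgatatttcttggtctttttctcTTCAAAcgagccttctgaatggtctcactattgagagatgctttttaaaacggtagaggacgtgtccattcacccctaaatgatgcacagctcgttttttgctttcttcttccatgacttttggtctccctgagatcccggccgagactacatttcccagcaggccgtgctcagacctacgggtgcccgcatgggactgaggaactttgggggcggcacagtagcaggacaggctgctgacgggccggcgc
Mybl2: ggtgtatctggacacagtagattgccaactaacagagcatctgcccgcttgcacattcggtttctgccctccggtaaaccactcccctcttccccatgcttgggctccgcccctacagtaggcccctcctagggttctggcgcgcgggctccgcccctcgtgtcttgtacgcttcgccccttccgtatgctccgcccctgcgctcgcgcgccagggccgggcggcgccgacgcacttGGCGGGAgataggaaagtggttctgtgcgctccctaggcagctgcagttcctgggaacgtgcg

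The *Rbl1* promoter held 1 GCGCGAA on the strand opposite to the gene, beginning 17 bases before the start site. The *Mybl2* promoter held 1 GGCGGGA beginning 13 bases before its RefSeq start site. That window ends at chr2:163054684, before the start of the gene in GENCODE M21 (chr2:163054687). The *Rbl2* promoter held 1 TTTGAA on the opposite strand, 201 bases before the start, and neither E2F core. Of the 32851 RefSeq mouse promoters of this length, 17.9% held TTTGAA and 12.6% held at least 1 of the E2F cores (11.3% GGCGGGA and 1.59% GCGCGAA). Sequences were given for 7 of the 10 subunit genes, and 6 of the 7 held an E2F core (*Lin37*, *Lin52*, *Lin54*, *Mybl2*, *Rbl1* and *Tfdp1*) while 3 held TTTGAA (*Lin37*, *Lin54* and *Rbl2*). These are counts of genes with a match in any window, whereas the shares above are of windows. *Lin54* and *Tfdp1* had more than 1 window, and the *Lin54* window at chr5:100500590-100500889 held no E2F core. Such a match describes the letters and does not show a bound site. *E2f4*, *E2f5* and *Lin9* had no entry.

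The libraries held between 15838064 and 21366868 counted reads. Of the 6 ESC markers examined (*Pou5f1*, *Nanog*, *Sox2*, *Zfp42*, *Esrrb*, *Tdgf1*), all were detected in every line, and their summed normalized counts lay between 69273 and 72284 in control, 82083 and 83245 in Ins/Ins, and 85197 and 87335 in Ins/Del, with 4 genes called higher and 1 lower in Ins/Ins and 3 higher and 0 lower in Ins/Del. The 6 fibroblast markers (*Col1a1*, *Col1a2*, *Col3a1*, *Postn*, *Thy1*, *Lum*) summed to between 576 and 670.4 in control, 254 and 283 in Ins/Ins, and 338 and 363 in Ins/Del, with 3 of 4 tested genes lower and 1 higher in each mutant. The 7 lineage markers (*Gata6*, *Sox17*, *Foxa2*, *T*, *Cdx2*, *Sox1*, *Pax6*) summed to between 882 and 944 in control, 225 and 257 in Ins/Ins, and 230.1 and 266 in Ins/Del. Of the 6 of them that were tested, 3 were lower and 0 higher in Ins/Ins, and 3 were lower and 2 higher in Ins/Del. Most of the summed level in control was *Pax6*, with 666, 695 and 674 normalized counts there, 76.98, 68.8 and 75.1 in Ins/Ins, and 27.6, 28.0 and 34.7 in Ins/Del. No marker was at 0 in all libraries of a line, and the part of these shifts in the results below was not tested.

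*Rbbp4* itself had 9932, 9965 and 10117 normalized counts in control, 5485, 5551 and 5776 in Ins/Ins, and 10129, 10344 and 10603 in Ins/Del. Normalized counts are reads per gene scaled to a common library size. The transcript fell by 0.84 on the log2 scale in Ins/Ins (SE 0.029, adjusted p = 1.78e-25) and differed by 0.050 ± 0.028 in Ins/Del (adjusted p = 0.11), both by the quasi-likelihood test of edgeR with Benjamini-Hochberg adjustment. Since both alleles stay in frame, this level does not check the genotype. By Western blot the authors reported lower levels of the mutant RBBP4 proteins. The transcript level therefore does not stand for the protein level. *Rbbp7*, the paralog of *Rbbp4*, had 7872 ± 100.1, 7459 ± 82.6 and 6742 ± 136 normalized counts in the same order of lines (SD, n = 3), and it was called lower in Ins/Del (log2 -0.22, adjusted p = 4.72e-09). In Ins/Ins *Rbbp7* did not pass with edgeR (log2 -0.078, adjusted p = 0.0129), but it did with DESeq2 (adjusted p = 0.00691) and with scaling by total counts (adjusted p = 0.00306).

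In both *Rbbp4* mutants the transcripts of p107, p130 and B-MYB were upregulated by 30.0% to 45.4%, *E2f5* was reduced by 30.4% and 40.6%, and *E2f4*, *Lin9* and *Lin37* did not pass the test. *Lin52*, *Lin54* and *Tfdp1* were called higher by smaller amounts. With DESeq2 or with scaling by total counts these calls were lost in Ins/Ins, and that of *Lin52* in Ins/Del as well. Of the 10 subunit genes, 7 passed an adjusted p of 0.01 in Ins/Ins, 6 higher and 1 lower, where 58.4% of all tested genes passed, 29.0% higher and 29.4% lower. In Ins/Del the same 7 genes passed in the same directions, where 62.5% of all genes did, 30.6% higher and 31.9% lower. The share of subunit genes called, 70.0% in each mutant, was not far from the share of all genes. The 2 comparisons share the control libraries.

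The median log2 fold change of the subunit genes was 0.13 in Ins/Ins and 0.18 in Ins/Del, beside 0.0038 and -0.011 over all tested genes. None of the 10 changed by 2-fold or more. The mutant libraries did not overlap the control libraries for 7 of the 10 in each mutant, 6 higher and 1 lower in Ins/Ins and 5 higher and 2 lower in Ins/Del, and the same held for 69.1% and 72.8% of all tested genes. In Ins/Ins the number called was 4 to 6 whichever library was left out, and it was 4 with DESeq2, with scaling by total counts, and without control replicate 2, Ins/Ins replicate 2 or Ins/Ins replicate 3. In bulk RNA, fewer cells that express a gene and less RNA per cell cannot be told apart, and because nothing states that the libraries of a line came from separate cultures, p-values measure the spread between these libraries.

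**Figure D1:**
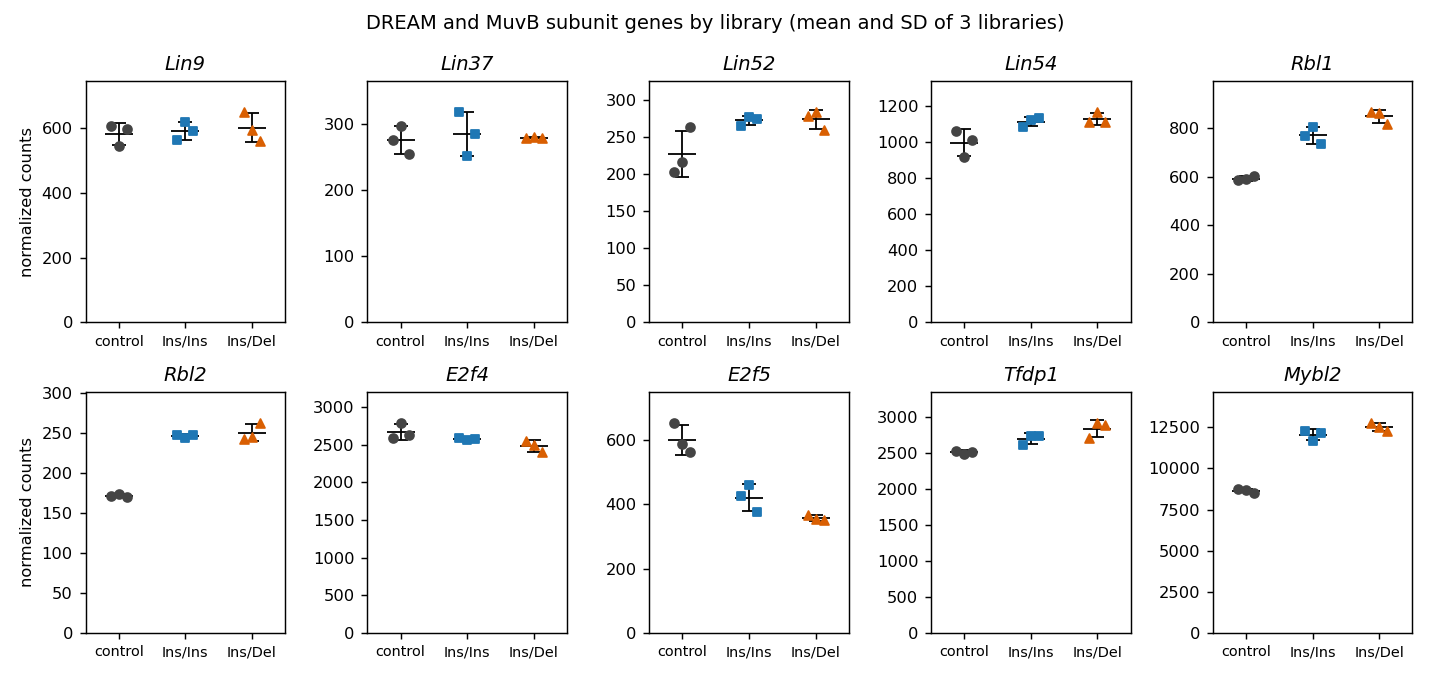
Normalized counts (vertical axes, each starting at 0) of the 10 subunit genes in the 3 libraries of control, Ins/Ins and Ins/Del, with black bars for the mean and SD (n = 3). The 6 mutant libraries of *Rbl1*, *Rbl2* and *Mybl2* all sit above the 3 control libraries, those of *E2f5* all below, and those of *Lin9* and *Lin37* overlap them.

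The MuvB core was represented by 4 genes. Positions given here are those of protein-coding genes in GENCODE M21 on mm10. *Lin9* (chr1:180641150-180690694, plus strand) encodes the scaffold of the core. The control libraries gave 609, 545 and 598 normalized counts of *Lin9*, the Ins/Ins libraries 564, 618 and 591, and the Ins/Del libraries 649, 596 and 561. The 3 lines overlapped, and *Lin9* differed from control by log2 0.012 ± 0.063 in Ins/Ins (SE, adjusted p = 0.88) and 0.044 ± 0.063 in Ins/Del (adjusted p = 0.54, edgeR with Benjamini-Hochberg adjustment).

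*Lin37* (chr7:30555441-30559838, minus strand) encodes the subunit that is needed for repression by DREAM. *Lin37* had 277, 297 and 256 normalized counts in control, 318, 252 and 285 in Ins/Ins, and 279, 282 and 280.0 in Ins/Del. All control and Ins/Del libraries lay inside the range of the Ins/Ins libraries. The log2 difference was 0.053 ± 0.086 in Ins/Ins and 0.018 ± 0.087 in Ins/Del (edgeR with Benjamini-Hochberg adjustment, adjusted p = 0.6 and 0.86).

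*Lin52* (chr12:84451422-84546145, plus strand) encodes the small subunit whose phosphorylation by DYRK1A recruits p107 or p130 to MuvB. In control, 203, 216 and 263 normalized counts of *Lin52* were measured, against 265, 278 and 275 in the Ins/Ins libraries and 279, 283 and 259 in the Ins/Del libraries. All Ins/Ins libraries lay above the control libraries, while the lowest Ins/Del library lay below the highest control library. *Lin52* rose by 20.4% in Ins/Ins (log2 0.27 ± 0.091, adjusted p = 0.00927) and by 21.4% in Ins/Del (log2 0.28 ± 0.091, adjusted p = 0.00618, edgeR with Benjamini-Hochberg adjustment). Neither call held with DESeq2 (adjusted p = 0.0306 and 0.0176) or with scaling by total counts (adjusted p = 0.0140 and 0.0102), and both were lost without control replicate 1 (log2 0.19 and 0.20) or control replicate 2 (log2 0.25 and 0.26). The Ins/Ins call was also lost in a fit of the compared lines alone (adjusted p = 0.0133), without any 1 of the Ins/Ins libraries (log2 0.26 to 0.30), and without Ins/Del replicate 1 or 2 (log2 0.27 each), and the Ins/Del call without Ins/Del replicate 1 or 2 (log2 0.27 and 0.26).

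*Lin54* (chr5:100441918-100500639, minus strand) encodes the subunit that binds the CHR element in DNA. Normalized counts of *Lin54* were 1064, 919.7 and 1010.1 in control, 1087, 1124 and 1134 in Ins/Ins, and 1110.2, 1166 and 1111 in Ins/Del. The lowest mutant library stood at 1087 and the highest control library at 1064. *Lin54* rose by 11.4% in Ins/Ins (log2 0.16 ± 0.050, adjusted p = 0.00599) and by 13.0% in Ins/Del (log2 0.18 ± 0.050, adjusted p = 0.00190, edgeR with Benjamini-Hochberg adjustment). Without control replicate 2 both calls were lost (log2 0.11 and 0.13), as was the Ins/Ins call without Ins/Ins replicate 2 or 3 (log2 0.15 and 0.14) or with DESeq2 (adjusted p = 0.0157) or total counts (adjusted p = 0.0102), and the Ins/Del call without Ins/Del replicate 2 (log2 0.15).

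The pocket proteins p107 and p130 link the E2F-DP dimer to MuvB and are the retinoblastoma relatives found in DREAM. Both of their transcripts rose in both mutants. *Rbl1* (chr2:157145893-157204534, minus strand) encodes p107. The control libraries gave 585, 588 and 602 normalized counts of *Rbl1*, the Ins/Ins libraries 768, 805 and 735, and the Ins/Del libraries 864, 863 and 818. The control libraries lay close together, and every mutant library was higher. *Rbl1* rose by 30.0% in Ins/Ins (log2 0.38 ± 0.055, adjusted p = 1.40e-07) and by 43.6% in Ins/Del (log2 0.52 ± 0.054, adjusted p = 5.86e-11, edgeR with Benjamini-Hochberg adjustment).

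*Rbl2* (chr8:91070057-91123844, plus strand) encodes p130, the pocket protein that predominates in quiescent cells. *Rbl2* had 172, 174 and 170.0 normalized counts in control, 248, 244 and 247 in Ins/Ins, and 243, 245 and 263 in Ins/Del. No mutant library fell below 243, and no control library exceeded 174. *Rbl2* rose by 43.4% in Ins/Ins (log2 0.52 ± 0.090, adjusted p = 3.57e-06) and by 45.4% in Ins/Del (log2 0.54 ± 0.090, adjusted p = 1.61e-06, edgeR with Benjamini-Hochberg adjustment). Of its exonic length, 8.49% overlaps exons of *Aktip* on the opposite strand, and 8.28% overlaps those of *Gm45464* on that strand. The strand setting of the counting is not given in the sources used here, and *Gm45464* was not examined. *Aktip* had 716 ± 43.2, 760 ± 44.7 and 717 ± 10.2 normalized counts (SD, n = 3) in control, Ins/Ins and Ins/Del and was called in neither mutant (log2 0.079 and -0.00098).

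Of the 3 genes of the E2F-DP dimers, 1 rose, 1 fell and 1 did not pass the test. *E2f4* (chr8:105297663-105305370, plus strand) encodes the principal repressive E2F of DREAM. In control, 2584, 2787 and 2629 normalized counts of *E2f4* were measured, against 2586, 2565 and 2574 in the Ins/Ins libraries and 2553, 2495 and 2403 in the Ins/Del libraries. The Ins/Ins libraries overlapped control, whereas the Ins/Del libraries all lay below it. The log2 difference was -0.049 ± 0.035 in Ins/Ins (adjusted p = 0.22) and -0.10 ± 0.035 in Ins/Del (adjusted p = 0.0114, edgeR with Benjamini-Hochberg adjustment), so neither passed the threshold of 0.01. The Ins/Del difference passed it without control replicate 1 (log2 -0.12, adjusted p = 0.00545), without Ins/Del replicate 1 (log2 -0.12, adjusted p = 0.00946), and with scaling by total counts (adjusted p = 0.0042).

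*E2f5* (chr3:14578641-14606309, plus strand) encodes the closest relative of E2F4 and its alternative in DREAM. Normalized counts of *E2f5* were 652, 588 and 562 in control, 424, 459 and 376 in Ins/Ins, and 368, 356 and 351 in Ins/Del. Every mutant library was below every control library, and every Ins/Del library was below every Ins/Ins library. *E2f5* was the only subunit gene called lower, by 30.4% in Ins/Ins (log2 -0.52 ± 0.069, adjusted p = 2.28e-08) and 40.6% in Ins/Del (log2 -0.75 ± 0.071, adjusted p = 5.94e-12, edgeR with Benjamini-Hochberg adjustment). Its absolute log2 fold change was the largest of the 10 genes in Ins/Del, while in Ins/Ins it differed from that of *Rbl2* by less than the SE of either.

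*Tfdp1* (chr8:13338751-13378448, plus strand) encodes DP1, the partner that E2F proteins need to bind DNA. The control libraries gave 2531, 2477 and 2507 normalized counts of *Tfdp1*, the Ins/Ins libraries 2611, 2739 and 2736, and the Ins/Del libraries 2699.8, 2909.9 and 2887. The control libraries were all below the mutant libraries by a small margin. *Tfdp1* rose by 7.45% in Ins/Ins (log2 0.10 ± 0.035, adjusted p = 0.00983) and by 13.0% in Ins/Del (log2 0.18 ± 0.035, adjusted p = 3.08e-05, edgeR with Benjamini-Hochberg adjustment). The Ins/Ins call was lost with DESeq2, its size factors, total counts, the replicate block or the compared lines alone (adjusted p between 0.0104 and 0.0228), and without any 1 library other than Ins/Ins replicate 1 and Ins/Del replicate 1 (log2 between 0.094 and 0.11), whereas the Ins/Del call held whichever library was left out.

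*Mybl2* (chr2:163054687-163084688, plus strand) encodes B-MYB, which takes the place of the pocket protein and E2F on MuvB in S phase and is itself repressed by DREAM in quiescent cells. *Mybl2* had 8734, 8708 and 8526 normalized counts in control, 12306, 11668 and 12168 in Ins/Ins, and 12755, 12506 and 12283 in Ins/Del. The highest control library was 8734 and the lowest mutant library 11668. *Mybl2* rose by 39.2% in Ins/Ins (log2 0.48 ± 0.028, adjusted p = 4.42e-18) and by 44.6% in Ins/Del (log2 0.53 ± 0.028, adjusted p = 1.11e-19, edgeR with Benjamini-Hochberg adjustment). With the deepest counts of the 10 genes it also had the smallest standard errors.

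**Figure D2:**
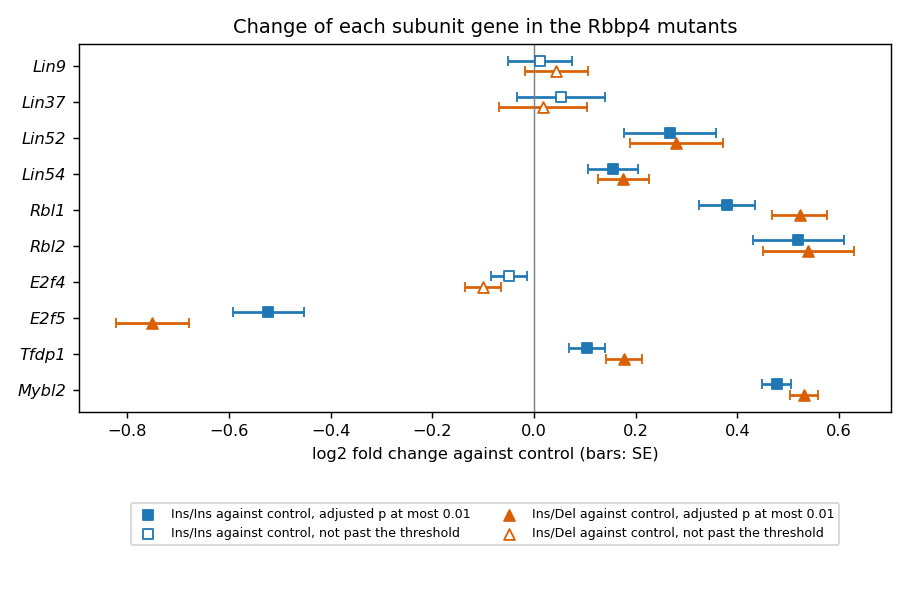
Log2 fold change against control (horizontal axis) of each subunit gene in Ins/Ins (squares) and Ins/Del (triangles), with bars for the SE of the edgeR fit and filled symbols for an adjusted p of at most 0.01. *Rbl1*, *Rbl2* and *Mybl2* lie between 0.38 and 0.54, *E2f5* at -0.52 and -0.75, and the open symbols of *Lin9*, *Lin37* and *E2f4* near 0.

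The levels of the subunit genes could be set beside each other only per length, as normalized counts per kb of the exons in GENCODE M21, since longer transcripts collect more reads. In control, *Mybl2* was highest at 2371 ± 31.0 normalized counts per kb (SD, n = 3), followed by *E2f4* at 1338 ± 53.6 and *Tfdp1* at 998 ± 10.6. *E2f5* followed at 337 ± 26.1. The MuvB genes *Lin37*, *Lin54* and *Lin9* lay close together at 210.2 ± 16.0, 204 ± 14.9 and 185 ± 10.8, and *Lin37* and *Lin54* did not differ beyond their SD and changed places when the longest coding transcript was used as the length. *Rbl1* at 122 ± 1.89, *Lin52* at 100.2 ± 13.9 and *Rbl2* at 34.9 ± 0.397 came last.

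In the mutants the ends of this order were the same, with *Mybl2* at 3299.7 ± 91.9 and 3428 ± 64.6 normalized counts per kb in Ins/Ins and Ins/Del and *Rbl2* at 50.03 ± 0.470 and 50.9 ± 2.15. *E2f5* came down to 236 ± 23.4 and 201 ± 5.04, where *Lin54* stood at 228 ± 5.06 and 231 ± 6.52 and *Lin9* at 187 ± 8.66 and, in Ins/Del, 190.5 on average. *E2f5* did not differ beyond the SD from *Lin54* in Ins/Ins or from *Lin9* in Ins/Del. Per kb, *Mybl2* exceeded *Rbl2* by 67.9 ± 0.55 times in control, 65.9 ± 1.22 times in Ins/Ins and 67.5 ± 3.96 times in Ins/Del (SD, n = 3). *Rbl1* exceeded *Rbl2* by 3.49 ± 0.089, 3.16 ± 0.17 and 3.44 ± 0.25 times in the same order. The annotation used for counting is not given in the sources used here, so these lengths may differ from those counted.

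**Figure D3:**
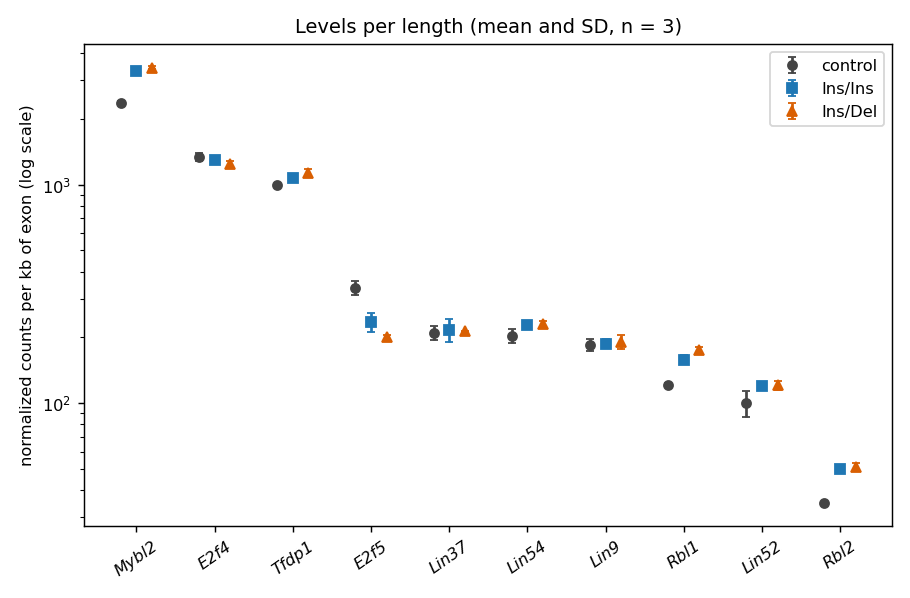
Normalized counts per kb of exon (vertical axis, log scale) of the 10 subunit genes in order of the control level, as mean and SD of 3 libraries in control, Ins/Ins and Ins/Del. *Mybl2* is at the top and *Rbl2* at the bottom in all 3 lines. In the mutants *E2f5* comes down near *Lin54*, *Lin37* and *Lin9* and stays above *Lin52*.

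Ratios of paired subunits within a library do not depend on library scaling, and 3 ratios were compared with control in each mutant, 6 comparisons in all, by an exact two-sided permutation test. With 3 libraries against 3 the smallest p the test allows is 0.1, so no comparison could reach 0.05. The log2 ratio of *E2f4* to *E2f5* counts was 2.15 ± 0.14 in control (SD, n = 3), 2.62 ± 0.15 in Ins/Ins and 2.79 ± 0.017 in Ins/Del. All mutant libraries (2.48 to 2.81) lay above all control libraries (1.99 to 2.25), so the *E2f4* to *E2f5* ratio was 1.38 and 1.56 times that in control (exact p = 0.1 and adjusted p = 0.15 in each mutant).

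The ratios that pair the upregulated genes differed from control by at most 0.14 on the log2 scale. The log2 ratio of *Mybl2* to *Rbl2* was 5.65 ± 0.012 in control, 5.61 ± 0.027 in Ins/Ins and 5.64 ± 0.086 in Ins/Del (SD, n = 3). Its differences from control were -0.043 (exact permutation p = 0.1, adjusted p = 0.15) and -0.010 (exact permutation p = 1, adjusted p = 1). The log2 ratio of *Rbl1* to *Rbl2* was 1.78 ± 0.036, 1.64 ± 0.077 and 1.76 ± 0.11, with differences of -0.14 (exact permutation p = 0.1, adjusted p = 0.15) and -0.022 (exact permutation p = 0.9, adjusted p = 1). In Ins/Ins the libraries lay below control in both ratios (5.58 to 5.63 against 5.65 to 5.67, and 1.57 to 1.72 against 1.76 to 1.82), and in Ins/Del they overlapped control. Without Ins/Del replicate 3, the Ins/Del differences of these 2 ratios were 0.038 each.

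**Figure D4:**
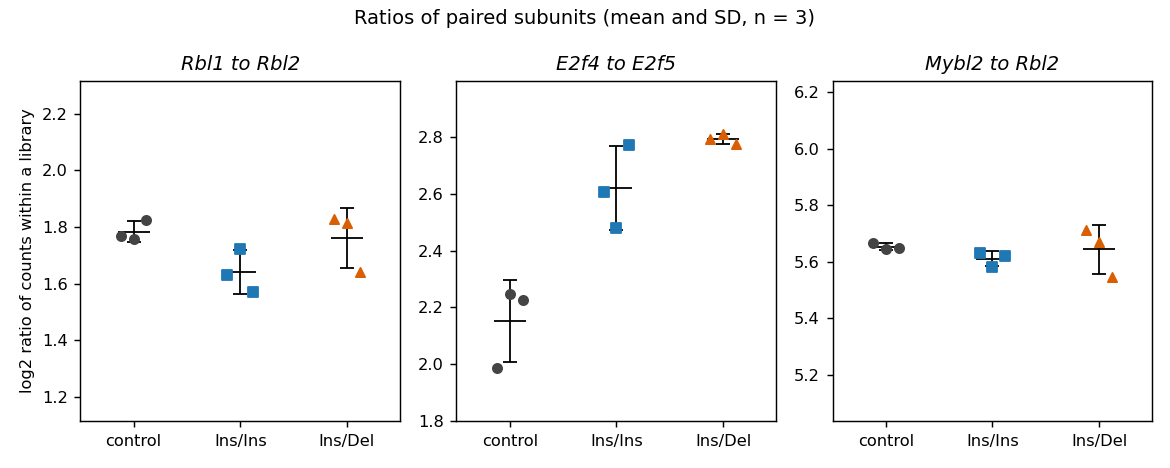
Log2 ratio of the counts of 2 subunit genes within each library (vertical axes, 1.2 log2 units in each panel) for control, Ins/Ins and Ins/Del, with bars for the mean and SD (n = 3). The *E2f4* to *E2f5* ratio is higher in all 6 mutant libraries than in control, and the *Mybl2* to *Rbl2* ratio stays near 5.65.

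The mutant lines were compared directly to ask whether the subunit genes differed between genotypes. By edgeR with Benjamini-Hochberg adjustment 0 of the 10 passed, where 10.8% of all tested genes did. At an unadjusted p below 0.05 there were 3, and DESeq2 called 0 with 4 at an unadjusted p below 0.05. The 3 were *Rbl1*, higher in Ins/Del by log2 0.14 ± 0.052 (adjusted p = 0.0494), *E2f5*, with a log2 difference of -0.23 ± 0.076 (adjusted p = 0.0295), and *Tfdp1*, with 0.073 ± 0.035 (adjusted p = 0.15). Without Ins/Ins replicate 3, *E2f5* passed the threshold (log2 -0.30, adjusted p = 0.0081). The other 7 log2 differences lay between -0.051 and 0.055, each with an SE of up to 0.088.

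Beyond the 10 subunits, 13 relatives and partners were followed, comprising RBBP4 and its paralog, other retinoblastoma, E2F and DP proteins, and other MYB factors with FOXM1. In Ins/Ins 3 were higher and 8 lower, and in Ins/Del 1 was higher and 9 lower, where 29.0% and 30.6% of all tested genes were higher and 29.4% and 31.9% lower. *E2f2*, an activating E2F, moved most among the E2F genes. In control, 173, 183 and 178 normalized counts of *E2f2* were measured, against 485, 407 and 399.6 in the Ins/Ins libraries and 549, 511 and 504 in the Ins/Del libraries. The lowest mutant library was above every control library, and *E2f2* rose by log2 1.29 ± 0.085 and 1.55 ± 0.083 (edgeR with Benjamini-Hochberg adjustment, adjusted p = 2.16e-16 and 2.22e-19). The repressive *E2f6* fell from 697 ± 43.3 to 442 ± 22.9 and 420.3 ± 9.39 normalized counts (SD, n = 3), with log2 fold changes of -0.66 and -0.73.

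*Rb1*, the retinoblastoma gene and pocket protein relative that DREAM does not contain, went the opposite way from *Rbl1* and *Rbl2*. Normalized counts of *Rb1* were 563, 541 and 626 in control, 372, 399 and 409 in Ins/Ins, and 391, 392 and 396 in Ins/Del. All mutant libraries were below control (log2 -0.55 ± 0.067 and -0.55 ± 0.067, edgeR with Benjamini-Hochberg adjustment, adjusted p = 2.63e-09 and 2.37e-09). *Rb1* lies on chromosome 14, and all 4 genes of the lists used here that lie on it were lower in both mutants. Of all tested genes, 29.4% were called lower in Ins/Ins and 31.9% in Ins/Del. Other genes of chromosome 14 were not examined here. *Myb*, the founding MYB factor, fell from 305 ± 28.3 normalized counts (log2 -1.05 and -1.47), whereas its relative *Mybl1* had 476 ± 55.6, 569 ± 21.3 and 539 ± 42.2 (SD, n = 3).

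The activating *E2f3* fell in both mutants (log2 -0.35 and -0.30), as did *Foxm1*, which follows B-MYB onto MuvB (log2 -0.20 and -0.20). The atypical repressor *E2f8* also fell (log2 -0.50 and -0.23). Smaller changes depended on single libraries, and some on the tool or fit. *E2f1*, another activating E2F, was called higher in Ins/Ins (log2 0.16), a call that was lost without control replicate 1 or 3 or Ins/Ins replicate 1 or 2 (log2 0.14 to 0.17), with DESeq2 (adjusted p = 0.0238) and with total counts (adjusted p = 0.0157). *Tfdp2*, which encodes the DP1 relative DP2, was called lower in both (log2 -0.16 and -0.10), the latter lost without any 1 library but control replicate 2 (log2 -0.11 to -0.064). With all libraries, that call was also lost with DESeq2, its size factors, all genes of at least 1 read, the replicate block or the compared lines alone (adjusted p between 0.0122 and 0.0300). The call of *E2f7*, another atypical repressor, in Ins/Del (log2 -0.21) was lost without control replicate 2 (log2 -0.17). *Mybl1* was called higher in Ins/Ins alone (log2 0.26), a call lost without control replicate 1 (log2 0.21), and it passed in Ins/Del (log2 0.19) only without control replicate 3 or Ins/Del replicate 3 (log2 0.29 and 0.24) or with all genes of at least 1 read.

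The 11 genes that set the balance between DREAM and B-MYB complexes (DYRK1A, G1 and S phase cyclins, their kinases and 2 kinase inhibitors) moved in both directions. In Ins/Ins 6 were higher and 4 lower, and in Ins/Del 7 were higher and 4 lower, beside 58.4% and 62.5% of all tested genes called. *Dyrk1a*, the kinase that phosphorylates LIN52, fell from 1835 ± 62.9 to 1583 ± 63.9 and 1483 ± 38.9 normalized counts (SD, n = 3). *Cdkn1a*, which encodes the kinase inhibitor p21, rose to 3.09 and 3.13 times its control level. The control libraries gave 513, 505 and 485 normalized counts of *Cdkn1a*, the Ins/Ins libraries 1574, 1514 and 1567, and the Ins/Del libraries 1476, 1639 and 1597. Its libraries were far apart from control in both mutants (log2 1.63 ± 0.051 and 1.65 ± 0.051, edgeR with Benjamini-Hochberg adjustment, adjusted p = 6.14e-27 and 3.29e-27).

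The D-type cyclins, which promote phosphorylation of pocket proteins, did not move together. *Ccnd2* had 464, 431 and 444 normalized counts in control, 24.8, 30.5 and 28.5 in Ins/Ins, and 36.8, 26.2 and 50.9 in Ins/Del. *Ccnd2* thus fell furthest of the pathway genes examined (log2 -4.01 ± 0.13 and -3.59 ± 0.13). *Ccnd1* fell (log2 -0.45 and -0.44), and *Ccnd3* rose by log2 0.24 and 0.47. Of their kinases, *Cdk6* fell from 1941 ± 22.9 to 928 ± 24.5 and 1225 ± 30.3 normalized counts (SD, n = 3), and *Cdk4* rose by log2 0.18 and 0.17. The S phase kinase *Cdk2* rose by log2 0.27 and 0.26, its cyclin *Ccne1* by 0.22 and 0.37, and the inhibitor *Cdkn1b* (p27) by 0.41 and 0.29. *Ccne2* was called higher in Ins/Del alone (log2 0.26), a call lost without control replicate 2 or Ins/Del replicate 2 (log2 0.21 and 0.23).

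Over relatives and regulators, 21 of the 24 other pathway genes passed the test in each mutant (87.5%, against 58.4% and 62.5% of all tested genes), 9 higher and 12 lower in Ins/Ins and 8 higher and 13 lower in Ins/Del, with 7 higher in both and 11 lower in both. Their median log2 fold change was -0.12 and -0.15. The genes were picked by function with earlier results of these data known, so their share is a description only.

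Genes that DREAM and B-MYB complexes control were described as lists of 49 G2/M and 44 G1/S genes. Of the G2/M genes, many of which carry CHR elements and are activated by B-MYB and FOXM1, 8 were higher and 22 lower in Ins/Ins, and 10 higher and 20 lower in Ins/Del. Their median log2 fold change was -0.055 and -0.038. Of the G1/S genes, which are mainly controlled through E2F sites, 22 were higher and 1 lower in Ins/Ins, and 19 higher and 4 lower in Ins/Del, with a median of 0.13 and 0.070. The shares called, 61.2% of G2/M genes and 52.3% of G1/S genes in each mutant, stood beside 58.4% and 62.5% of all tested genes. By direction, 29.0% of all tested genes were higher and 29.4% lower in Ins/Ins, and 30.6% higher and 31.9% lower in Ins/Del.

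Among G2/M genes called in both mutants, the highest mean changes were those of *Gtse1*, a regulator of p53 and microtubules (log2 0.46 and 0.57), *Hmmr*, a spindle protein (log2 0.31 and 0.52), and *Birc5*, the survivin subunit of the chromosomal passenger complex (log2 0.35 and 0.45). The lowest were *Cdkn3* (log2 -1.78 and -1.86), *Cdca2* (log2 -1.13 and -1.14) and *Dlgap5* (log2 -0.76 and -0.76). These 3 lie on chromosome 14 with *Rb1*, and without that chromosome 19 and 17 G2/M genes were lower. The part of chromosome 14 in the list's direction was not tested further.

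Among G1/S genes called in both mutants, the highest mean changes were those of *Rpa1*, which binds single-stranded DNA (log2 0.64 and 0.86), *Gins3*, of the replicative helicase (log2 0.59 and 0.57), and *Tk1*, thymidine kinase (log2 0.38 and 0.72). *Uhrf1* (log2 0.16 and 0.12) and *Chaf1a* (log2 0.16 and 0.12) were among those with the lowest means. *Chaf1a* encodes a subunit of the histone chaperone CAF-1, which also contains RBBP4.

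**Figure D5:**
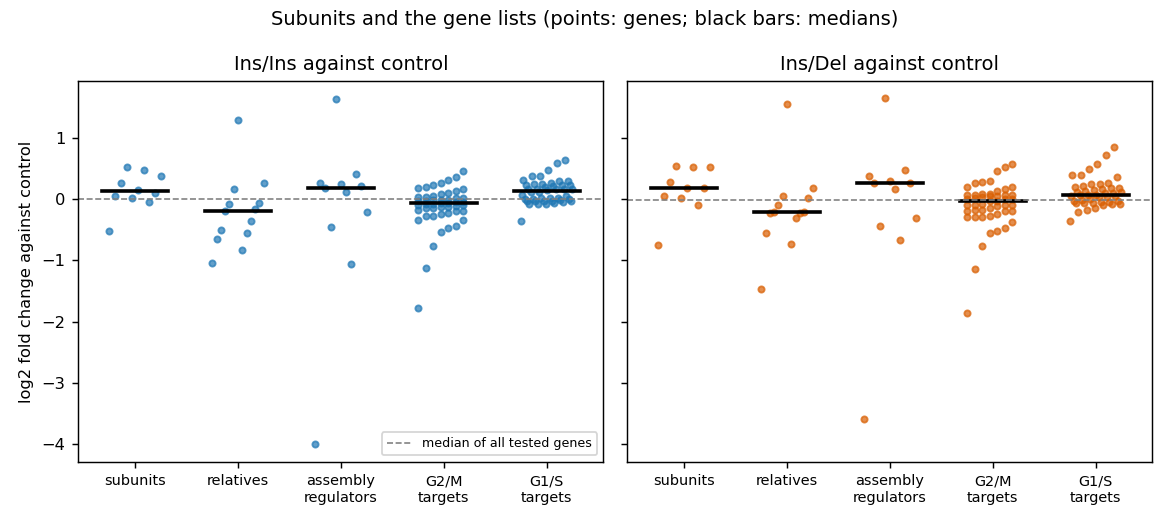
Log2 fold change against control (vertical axis) in Ins/Ins and Ins/Del of each of the 10 subunit genes, 13 relatives, 11 assembly regulators, 49 G2/M and 44 G1/S genes, with black bars for list medians and a dashed line for the median of all tested genes. The subunit medians are 0.13 and 0.18, the G1/S medians 0.13 and 0.070, and the G2/M medians -0.055 and -0.038.

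The expression pattern of *E2f5*, the subunit gene with the largest mean change, was compared with those of the tested genes that are no subunits. Over the 9 libraries the 3 most alike on the log2 scale were *Nck2* (Pearson r = 0.997), *Lrrc41* (r = 0.989) and *Zfp677* (r = 0.988). *Nck2* encodes an adaptor protein and averaged 401 normalized counts in control, 296 in Ins/Ins and 266 in Ins/Del. The 9 points share their 3 lines and their library scaling, and 1858 genes had r above 0.9, so the likeness is a description of these libraries.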

How the data were processed

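RNA-seq was analysed for 3 libraries each of control E14 ESCs, *Rbbp4* Ins/Ins and *Rbbp4* Ins/Del, grouped by the genotype label. Total RNA was extracted, and libraries were made with a Kapa mRNA HyperPrep kit and sequenced as paired-end reads. The authors aligned reads to mm10 with STAR 2.7.3 and counted them per gene with HTSeq, and the deposited values are these raw counts per gene symbol, without normalization. The HTSeq version, its strand setting and the annotation are not given in the sources used here.

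edgeR 4.0.16 in R 4.3.3 scaled the counts by TMM, kept 14125 genes by filterByExpr, and fitted its quasi-likelihood model (glmQLFit, glmQLFTest) once over the 9 libraries, with line as the only term. P-values were adjusted by Benjamini-Hochberg over all tested genes, with a threshold of 0.01. Counts were normalized by dividing by each library's TMM-scaled size and rescaling to the mean of those sizes. A subunit ratio is the difference of the log2 counts of its genes within a library, compared by an exact permutation test with scipy 1.17.1 in Python 3.11.15 and adjusted over the 6 comparisons. Replicates of each line differed by more than counting noise, so none was treated as the same library.

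The 10 subunits and all gene lists were chosen with earlier results of these data known. Named were all subunits, relatives and regulators, the 3 target genes of each list with the highest and the 3 with the lowest mean change among those called in both mutants, and the 3 genes most like the subunit gene of largest mean change. *Nck2*, *Lrrc41* and *Zfp677* came from that last rule, and *Aktip* and *Gm45464* were named after their overlap with *Rbl2* was seen. Alternatives were DESeq2 1.42.0, its size factors in edgeR, scaling by totals, no filter beyond 1 read, a fit of the compared lines alone, replicate number as a block, leaving out single libraries, a threshold of 0.05, a test against a 1.2-fold change, lists without chromosome 14, and a count of 0.5 added in the ratios. Positions and exon lengths are from GENCODE M21 on mm10 (GRCm38), and promoters from RefSeq on GRCm38.p6. ChIP-seq data were not analysed here. A target gene that the rule names is not reported here.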

Additional observations from a re-analysis of the deposited data

Results flagged for a closer look

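The 10 subunit genes, the 24 other pathway genes and the named target genes were compared directly between the mutant lines by edgeR. Of these genes, 11 differed (adjusted p at most 0.01), where 10.8% of all tested genes did. The 11 held 0 of the 10 subunit genes and 7 of the 24 other pathway genes (29.2%), and the rest were target genes. The other pathway genes had been chosen with earlier results of these data known. The target genes had been picked by their changes in these data. Markers and other genes named above were not part of this comparison. The values are log2 differences of Ins/Del from Ins/Ins. *Rbbp4* itself differed by 0.89 and its paralog *Rbbp7* by -0.15. Of the E2F genes, *E2f2* differed by 0.27 and *E2f8* by 0.27. Of the regulators of complex assembly, *Cdk6* differed by 0.40, *Ccnd3* by 0.23 and *Ccne1* by 0.16. Of the target genes, *Tk1* differed by 0.34, *Hmmr* by 0.22, *Rpa1* by 0.21 and *Gtse1* by 0.12. Of these 11 genes, all but *Rbbp7* were higher in Ins/Del. Over the full target lists the median log2 difference was 0.020 for G2/M and -0.038 for G1/S genes, beside -0.0035 for all tested genes. Outside this comparison, the marker *Pax6* was lower in every Ins/Del library than in every Ins/Ins library.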

How the results depend on the processing

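The directions of the 7 called subunit genes against control held under every alternative, and *Rbl2*, *E2f5* and *Mybl2* stayed past the threshold throughout in both mutants, as did *Rbl1* except in Ins/Ins in the test against a 1.2-fold change (adjusted p = 0.0156). Of the subunit genes, 7 passed in each mutant. In Ins/Ins this became 4 with DESeq2, 4 with total counts, 3 in the test against a 1.2-fold change, and 4 to 6 with a library left out. In Ins/Del it became 4 in the 1.2-fold test and 5 to 7 with a library left out. Between the mutants, 0 became 2 at a threshold of 0.05 and 0 to 1 with a library left out. The 1.2-fold test, which asks for a larger change, left 11 and 10 other pathway genes, 9 and 10 G2/M genes, 5 and 8 G1/S genes, and 4526 and 5288 of all genes in Ins/Ins and Ins/Del. Between the mutants, 1527 genes became 146 in that test, 2682 at a threshold of 0.05, and 988 to 1646 with a library left out. The reversals were of differences near 0 that passed in no setting. *Lin9* in Ins/Ins turned to -0.0013 with total counts. With a library left out, log2 differences of *Lin9* ranged from -0.023 to 0.060 in Ins/Ins, -0.010 to 0.091 in Ins/Del and -0.024 to 0.076 between the mutants, and those of *Lin37* from -0.029 to 0.13, -0.022 to 0.080 and -0.11 to 0.060. Between the mutants, *Lin52* ranged from -0.014 to 0.048, *Lin54* from -0.0047 to 0.033 and *Rbl2* from -0.012 to 0.039. *E2f1* in Ins/Del ranged from -0.0091 to 0.050 and *E2f7* in Ins/Ins from -0.13 to 0.0092. The ratios of *Rbl1* to *Rbl2* and of *Mybl2* to *Rbl2* in Ins/Del, at -0.022 and -0.010, ranged from -0.056 and -0.045 to 0.038 each, the last without Ins/Del replicate 3. The cause of these changes was not tested. With the replicate block, 6 and 7 subunit genes passed, *Tfdp1* dropping out in Ins/Ins (edgeR adjusted p = 0.011), and 0 between the mutants. The block changed no number of calls by over 1.5 times. Deviations of same-numbered libraries correlated at only -0.024 to 0.060 over genes, beside -0.057 to 0.058 for libraries with different numbers. Whether the numbers pair the libraries cannot be settled by these correlations. *Rbl2*, *Lin37* and *Lin52*, with 170.0 to 318 normalized counts per library, were the least deeply counted subunit genes.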
